A study of Mus musculus with 80 samples.

Results

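The genes Mpo, Elane, Prtn3, Ctsg, Ms4a3 and Cebpe were followed as a set of neutrophil primary granule genes in mouse blood stem and progenitor cells. The members were taken by symbol and not by a filter on their values, though earlier results of these data were known. All 6 had a row in both deposited gene tables, which list 41388 and 40481 genes. The series measured RNA by bulk sequencing in cells labelled haematopoietic stem cells (HSC) and haematopoietic progenitor cells (HPC), in 80 libraries that fall into 20 groups. The age series held 26 HSC libraries from E14.5, E16.5 and E18.5 embryos (E14, E16 and E18 below), postnatal days 0, 7 and 14 (P0, P7 and P14) and 8-week adults, with 3 or 4 libraries per age. It also held 20 HPC libraries from E16 (3), P0 (4), P7 (4), P14 (5) and adults (4). All groups are on the B6 background, and no label gives a mutation for the age series. The genotype series compared Ifnar -/- with wild type at P0, in HSC (4 against 5 libraries) and HPC (4 against 4). At P14 it held HPC of 4 genotypes, which were Ifnar +/- or -/- combined with Flt3 +/+ or Flt3 ITD/+, with 4 libraries each and 5 for Ifnar -/- with Flt3 ITD/+. Ifnar is the type I interferon receptor, and the Flt3 internal tandem duplication (ITD) is an activating change found in acute myeloid leukaemia. The P14 controls thus carried 1 mutant Ifnar allele, unlike the wild type controls at P0. The sort markers, the organ and the type of mutant allele are not given in the labels used here. No label says that libraries of a group came from separate animals, so p-values measure the spread between these libraries, which may be technical.

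Primary, or azurophil, granules are the first granules that a neutrophil precursor makes, and they are filled at the promyelocyte stage. They carry myeloperoxidase and a family of serine proteases that kill ingested microbes, and the genes for these proteins are already transcribed in granulocyte-monocyte progenitors before the cells look like neutrophils. Mpo encodes the peroxidase that makes hypochlorous acid. Elane, Prtn3 and Ctsg encode the serine proteases neutrophil elastase, proteinase 3 and cathepsin G. Ms4a3 encodes a membrane protein of granulocyte-monocyte progenitors, and Cebpe encodes C/EBP epsilon, the transcription factor of the promyelocyte and later granulocyte stages.

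In RefSeq on GRCm38.p6, Prtn3 lies at chr10:79879667-79883174 and Elane beside it at chr10:79886312-79888216, both on the plus strand. Mpo lies at chr11:87793784-87804412, Cebpe at chr14:54710363-54712174, Ctsg at chr14:56099885-56102574 and Ms4a3 at chr19:11629499-11640851. Mpo overlaps the antisense gene Gm11505, whose own row held 0 to 38 reads per library, and because no source states whether counting used strand, reads of the pair cannot be told apart. GENCODE places a start 203 bases before the RefSeq start of Mpo, 65 before that of Elane and 53 before that of Prtn3. Reads of these genes cannot be assigned to a transcript. The sequences upstream of the starts are shown because all 6 members peaked at P14 in HPC of the age series, as described below. Of the 6 members, 5 matched the RefSeq promoter table, and each of these held GGAAGT, a core sequence of ETS-family factors such as PU.1, in the 250 bases before its start. The capitals below mark it, and each sequence stops before the most upstream annotated start of that gene, so that only upstream sequence is shown, 5′ to 3′ on the gene's strand.
Mpo (chr11:87793534-87793580, plus strand): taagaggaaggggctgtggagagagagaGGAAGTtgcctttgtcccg
Elane (chr10:79886062-79886246, plus strand): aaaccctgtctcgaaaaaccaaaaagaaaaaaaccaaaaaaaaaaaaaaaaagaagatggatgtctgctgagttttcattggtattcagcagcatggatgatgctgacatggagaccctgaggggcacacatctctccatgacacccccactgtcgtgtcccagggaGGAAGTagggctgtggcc
Prtn3 (chr10:79879417-79879613, plus strand): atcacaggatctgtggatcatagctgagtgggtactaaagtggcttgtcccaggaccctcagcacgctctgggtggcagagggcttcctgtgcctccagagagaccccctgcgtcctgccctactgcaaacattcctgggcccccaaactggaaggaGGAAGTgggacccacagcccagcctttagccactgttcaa
Ctsg (chr14:56102575-56102824, minus strand): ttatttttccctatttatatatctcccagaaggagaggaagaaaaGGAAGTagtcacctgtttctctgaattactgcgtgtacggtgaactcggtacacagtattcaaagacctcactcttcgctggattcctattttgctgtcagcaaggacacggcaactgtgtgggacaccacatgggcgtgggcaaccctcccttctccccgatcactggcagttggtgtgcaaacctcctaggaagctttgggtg
Ms4a3 (chr19:11640852-11641101, minus strand): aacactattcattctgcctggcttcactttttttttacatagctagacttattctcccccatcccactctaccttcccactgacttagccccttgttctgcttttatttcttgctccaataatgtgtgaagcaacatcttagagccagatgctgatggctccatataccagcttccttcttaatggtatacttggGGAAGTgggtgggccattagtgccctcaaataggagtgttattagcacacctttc

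The match began 83 bases before the RefSeq start of Elane, 93 before that of Prtn3, 55 before that of Ms4a3, 205 before that of Ctsg and 222 before that of Mpo. Searched on both strands, GGAAGT occurred in 19.7% of all 32851 mouse windows of this length. AACNG, a core of Myb sites, occurred in 4 of the 5 members and in 74.2% of all windows. TATAA occurred in 3 of the 5, Elane, Prtn3 and Ctsg, and in 22.8% of windows. It began 31 bases before the start of Elane and 32 before that of Prtn3. TTGCNNAA, a form of the C/EBP site, occurred in 0 of the 5 and in 9.56% of windows. No matches of different motifs overlapped in these 5 windows. Each match describes the letters of the window only.

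Library totals of reads in genes were 6950206 to 24033730 in the HSC age libraries, 7910900 to 25382447 in the HPC age libraries, and 11683086 to 92099541 in the genotype libraries. Levels are given as RPKM, in which a gene's reads are divided by its exon length and by the library total. Differences are log2 fold changes ± SE with p-values adjusted by Benjamini-Hochberg over all genes tested, and genes with an adjusted p under 0.05 are said to be called. Summed levels of 7 HSC markers had group medians of 487 to 833 RPKM in age series HSC and 229 to 353 in HPC. Summed levels of 3 progenitor markers (Cd48, Flt3 and Cd34) had group medians of 185 to 340 RPKM in HSC and 817 to 957 in HPC. Reads of the receptor genes did not separate the libraries by Ifnar label: Ifnar1 was at 42.3 to 87.9 CPM (reads scaled to the library total) in the 17 libraries labelled Ifnar -/- and at 16.8 to 79.3 in the other 17. Ifnar2 was at 13.6 to 102 and 11.7 to 88.1 CPM. Counts over a whole gene check nothing where a mutant allele still makes RNA, so the Ifnar genotypes rest on the labels. Each HPC age, and each genotype set of one age and cell type, carries a library code of its own in the deposited column names, and in HSC the codes divide E14, E16 and E18 from P7 and P14 and from P0 and adult. Code and group cannot be told apart where they coincide.

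Mpo and Ctsg were higher in HPC than in HSC at all 5 shared ages, all 6 members were at P14, and Prtn3 was lower in HPC at P0 and P7. In the age series the members together took 0.0980% to 1.99% of a library's gene reads in HPC and 0.0229% to 0.108% in HSC. In HPC the highest group mean was at P14 for every member. In HSC, Prtn3 was the most abundant member per length at every age, and Ctsg was at 0 in 17 of 26 libraries and Cebpe in 10 of 26. In bulk RNA, fewer cells of a type and less RNA per cell cannot be told apart, here and in all comparisons below.

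**Figure D1:**
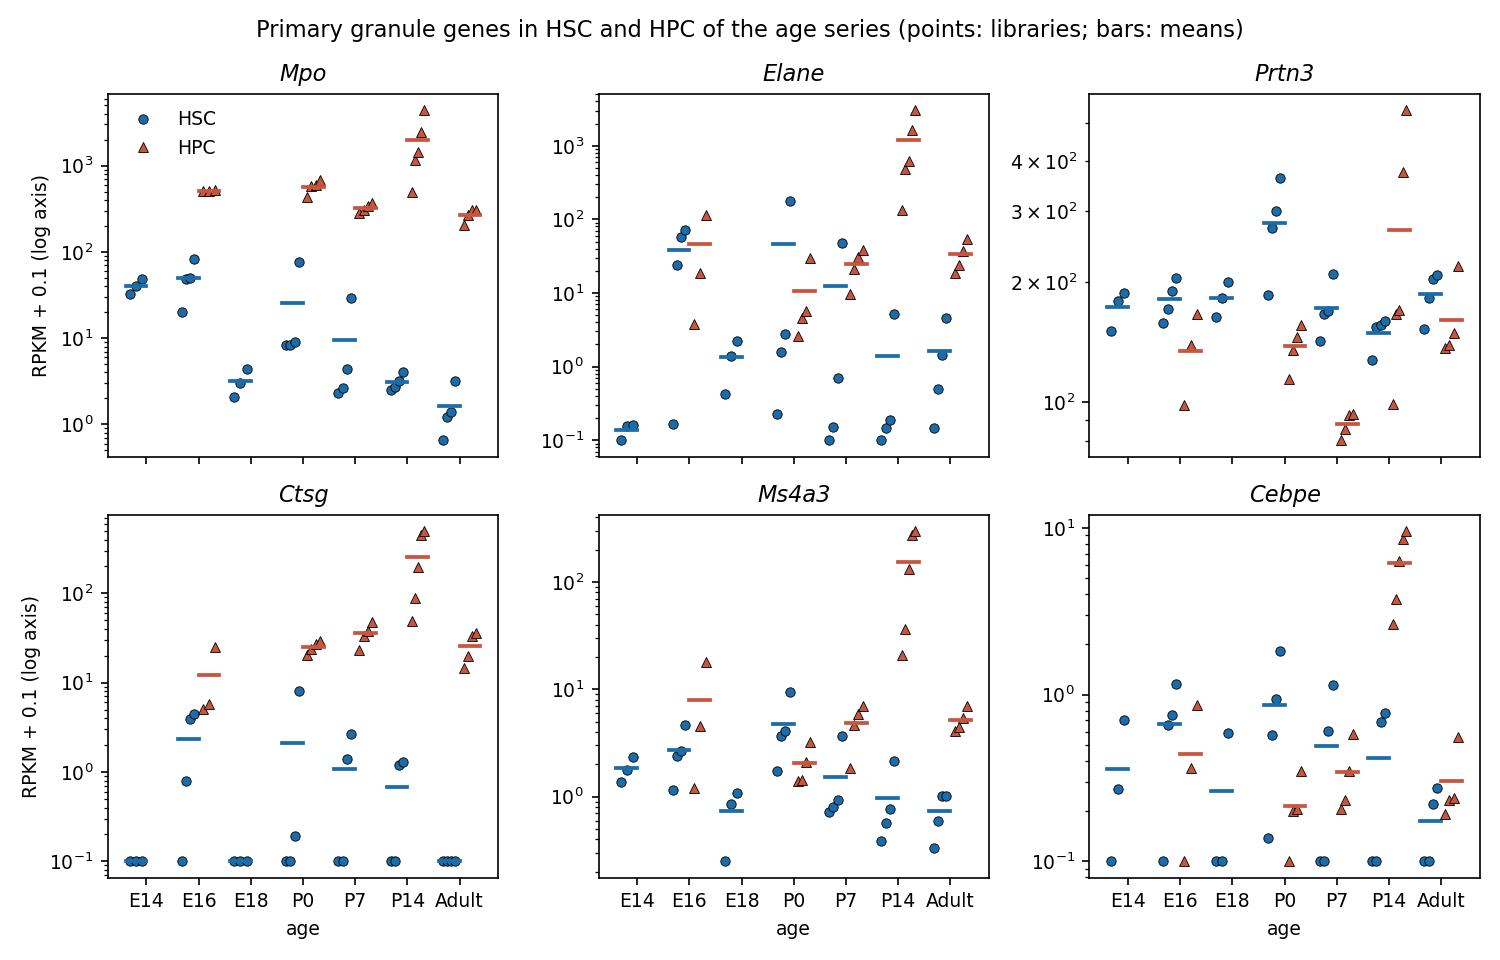
Level of each member by age. The y axis is RPKM + 0.1 on a log axis and the x axis is age; points are libraries, bars are group means, and colours separate HSC from HPC. All 5 HPC libraries of P14 lie above all 4 of P7 for every member, and the share of all genes that do so was not computed. In HSC Mpo falls between E16 and E18 and Prtn3 stays between 127 and 364 RPKM.

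Mpo was the most abundant member in HPC at every age. Its HPC levels were 506, 508 and 528 RPKM at E16, 679.5, 593, 435 and 583 at P0, and 372, 338, 304 and 286 at P7. At P14 they were 1156, 2474, 4414, 1449 and 494, and in adults 303, 306, 204 and 267. The P14 libraries spread over a wider range than those of any other age, and the lowest of them was still above every P7 and adult library. The group means were 514 ± 12.3 (SD, n = 3) at E16, 573 ± 102 (n = 4) at P0, 325 ± 38.1 (n = 4) at P7, 1998 ± 1528 (n = 5) at P14 and 269.9 ± 47.2 (n = 4) in adults. E16 and P0 overlapped, as did P7 and adult.

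The proteases followed with the same peak. Elane was at 37.7, 30.9, 9.66 and 21.02 RPKM in HPC at P7, at 622, 1617, 3059.5, 481 and 136 at P14, and at 23.8, 53.9, 18.6 and 36.6 in adults. Ctsg was at 47.2, 38.1, 23.4 and 32.9 RPKM at P7, at 199.6, 447, 496, 87.7 and 48.7 at P14, and at 14.6, 33.1, 19.7 and 35.9 in adults. Neither protease gene overlapped between P14 and either neighbouring age, and the share of all genes that do so was not computed. For Ctsg the lowest P14 library, at 48.7 RPKM, lay close to the highest P7 library, at 47.2. Prtn3 was at 92.6, 85.6, 93.5 and 80.2 RPKM at P7, at 170.0, 377, 538, 166 and 99.0 at P14, and at 139, 219, 136 and 149 in adults, so that P14 and adult overlapped. Replicate 3 was the highest P14 library for Mpo and all 3 proteases, and replicate 5 the lowest.

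The genes of the progenitor membrane protein and the transcription factor peaked at P14 from low levels. Ms4a3 was at 132, 297, 274, 36.3 and 20.6 RPKM in HPC at P14, against 6.85, 5.75, 1.76 and 4.53 at P7 and 4.33, 5.31, 3.996 and 6.90 in adults. Cebpe was at 6.23, 8.47, 9.44, 2.56 and 3.63 RPKM at P14, and no other HPC age library exceeded 0.763.

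From P7 to P14 all 6 members rose in HPC, against 9.84% of the 14754 genes called in either direction and 4.79% called higher, by edgeR's quasi-likelihood test. The rise was 2.76 ± 0.40 for Mpo (adjusted p = 2.51e-04), 5.72 ± 0.996 for Elane (0.00141) and 3.02 ± 0.57 for Ctsg (0.00277). It was 1.77 ± 0.34 for Prtn3 (0.00336), 5.18 ± 0.79 for Ms4a3 (4.31e-04) and 4.77 ± 0.66 for Cebpe (1.90e-04). Cebpe had 11 to 21 reads in all per HPC group outside P14, against 746 at P14, so it was tested only through the group where it is high and its call adds nothing to the count, here and in adults. All 6 calls remained without each library in turn.

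From P14 to the adult all 6 fell, where 28.9% of genes were called and 14% were called lower by edgeR. The changes were -3.14 ± 0.40 for Mpo (adjusted p = 1.49e-05), -5.41 ± 0.98 for Elane (5.20e-04), -3.59 ± 0.59 for Ctsg (2.24e-04), -5.18 ± 0.79 for Ms4a3 (9.96e-05) and -5.10 ± 0.67 for Cebpe (1.83e-05). Prtn3 changed by -1.002 ± 0.33 (0.0291), and that call was lost without any of 5 single libraries, which were adult replicates 1, 3 and 4 (-0.93, -0.94 and -0.96; adjusted p = 0.0802, 0.0703 and 0.0740) and P14 replicates 2 and 3 (-0.82 and -0.66; 0.0843 and 0.0941). It was lost too when only the P14 and adult libraries were fitted (-1.02, adjusted p = 0.0937). The other 5 calls remained without each library in turn. The P14 group is shared by this comparison and the one with P7.

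The remaining HPC steps showed no call among the members by edgeR. These were P0 against E16, where 3.27% of genes were called and 2 members had an unadjusted p under 0.05, and P7 against P0, where 1.5% were called and 1 member had one. DESeq2 also called 0 members in both. When only the P0 and P7 libraries were fitted, Mpo (-0.84, adjusted p = 0.00478) and Prtn3 (-0.67, 0.00436) were called lower at P7. Adult against E16 had 0 members called by edgeR, with 27.0% of genes called and 1 member under an unadjusted p of 0.05, and 1 member called by DESeq2. That member was Mpo, at -1.07 ± 0.41 with an adjusted p of 0.0551 by edgeR, and it was called in 6 of 13 alternatives.

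Markers of other cells also differed between these HPC groups. The eosinophil granule genes Prg2 and Epx summed to 9874, 3527, 393, 1419 and 3529 RPKM in the 5 P14 libraries, 36.7 to 112 at P7 and 12.5 to 179 in adults, and both genes passed the test in both comparisons. The P14 library with the highest Mpo, Elane and Prtn3 had the lowest of these sums. When the 3 P14 libraries above 3000 RPKM were left out, a threshold chosen after the values were seen, all 6 members were still called at both steps. Cebpe was again tested only through P14. The 2 P14 libraries kept, at 393 and 1419 RPKM, still lay above every P7 and adult library in these sums. The omission thus did not remove the eosinophil difference and cannot decide its part. The 9 late neutrophil markers summed to 5.99 to 275 RPKM at P14, 8.74 to 114 at P7 and 14.6 to 47.3 in adults, and Ly6g was at 0 in every adult HPC library. Of the late neutrophil markers tested, 0 of 7 passed from P7 to P14 and 4 of 7 were lower in adults than at P14. The mast cell and basophil genes, 5 markers with Cpa3 and Mcpt8 among them, summed to 16.9 to 188 RPKM at P14, 93.6 to 210.1 at P7 and 21.2 to 47.7 in adults. The monocyte and macrophage markers summed to 59.0 to 136 RPKM at P14, 27.8 to 45.4 at P7 and 41.7 to 91.9 in adults, and the erythroid markers to 1.14 to 5.11, 8.07 to 11.5 and 9.36 to 28.9. Neither sum overlapped between P14 and P7, with 2 of 9 called higher and 1 of 5 called lower at P14. The part of these markers in the members' differences was not tested.

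In related gene lists part of the genes passed the test at these HPC steps. Of 13 other primary granule genes, 4 rose from P7 to P14: Prss57, which encodes a further granule serine protease (1.45), Cd63, a granule membrane tetraspanin (1.11), Nkg7 (0.84) and the chaperone gene Calr (0.69). The median over the 13 was 0.28. Of 15 tested genes of secondary granules and later neutrophils, 3 rose: Hp, haptoglobin (4.47), Cybb, the oxidase subunit gp91phox (2.45), and Pglyrp1, a peptidoglycan recognition protein (1.09). Of 16 transcription factors, receptors and progenitor genes, 3 rose: Igsf6 (2.68), Hk3, a hexokinase of myeloid cells (2.35), and Fcgr3, an Fc receptor (1.76). Among the 18 tested genome neighbours of the members, Epx, near Mpo, rose (6.64) and the mast cell protease gene Mcpt4, near Ctsg, fell (-4.47).

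From P14 to the adult, 4 of the 13 other primary granule genes fell: Prss57 (-0.97), Ctsc, the protease that activates the granule serine proteases (-0.51), Npc2 (-0.53) and Calr (-0.89). Of the 15 tested secondary granule and late neutrophil genes, 10 fell, and the 4 with the smallest adjusted p were Hp (-5.24), Pglyrp1 (-1.37), Ltf, lactoferrin (-3.26), and the chemokine receptor gene Cxcr2 (-1.35). Of the 16 factors and receptors, 4 rose, with the G-CSF receptor gene Csf3r (0.84) and Runx1 (0.62) among them, and 3 fell, with Igsf6 (-3.72) and Fcgr3 (-3.69) among them.

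HSC showed another order of levels. Prtn3 was at 179, 151 and 188 RPKM at E14, 171, 158, 204 and 189 at E16, and 163, 200.04 and 182 at E18. At P0 it was at 185, 272, 364 and 301 RPKM, and it was between 127 and 209 in all later libraries. Its group means were 172 ± 19.4 (SD, n = 3) at E14, 181 ± 20.2 (n = 4) at E16, 182 ± 18.7 (n = 3) at E18, 280.5 ± 74.0 (n = 4) at P0, 171 ± 27.6 (n = 4) at P7, 149 ± 14.9 (n = 4) at P14 and 187 ± 25.3 (n = 4) in adults. Only P0 stood above its neighbours in the mean, and its lowest library overlapped with them. In wild type P0 HSC of the genotype series, Prtn3 was at 146 to 236 RPKM, with a mean of 199.8 ± 36.6 (SD, n = 5).

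Mpo was high in HSC at E14 and E16. It was at 49.0, 32.3 and 40.7 RPKM at E14 and 19.9, 49.0, 82.2 and 50.2 at E16, then at 4.27, 1.97 and 2.93 at E18. At P0 it was at 8.97, 8.16, 76.5 and 8.30 RPKM, at P7 at 2.55, 29.0, 4.31 and 2.23, at P14 at 3.98, 2.42, 3.11 and 2.59, and in adults at 1.11, 0.557, 3.09 and 1.31. P0 replicate 3 and P7 replicate 2 stood apart from the other libraries of their age. In wild type P0 HSC of the genotype series, Mpo was at 1.52 to 2.80 RPKM, below every age series P0 library. E16 lay above E18 and above the adult without overlap.

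Elane and Ctsg in HSC differed widely between libraries of an age. Elane was at 0.0579, 0 and 0.0593 RPKM at E14, at 0.0632, 24.1, 71.9 and 58.0 at E16, at 1.497, 2.66, 179 and 0.128 at P0, and at 0.607, 48.2, 0 and 0.0511 at P7, and it did not exceed 5.03 in E18, P14 and adult libraries. Ctsg was at 0 in all E14, E18 and adult libraries, at 0, 0.687, 4.35 and 3.81 RPKM at E16, at 0.0917, 0, 7.97 and 0 at P0, at 0, 2.58, 1.31 and 0 at P7, and at 1.09, 0, 1.21 and 0 at P14. The libraries that were high in Mpo at P0 and P7 were also the highest there in Elane and Ctsg. Ms4a3 lay between 0.15 and 9.34 RPKM over the 26 HSC libraries and was highest at P0 (1.63, 3.55, 9.34 and 3.997). Cebpe did not exceed 1.73.

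In HSC, tests used limma on log2(RPKM + 0.5), a scale that understates the changes of low genes, over 13356 genes. From E16 to E18 Mpo fell (-3.76 ± 0.73, adjusted p = 0.00274), the single member called where 5.45% of genes were called and 3.03% were called lower. It was called without each library in turn, and Ms4a3 was called too without E16 replicate 1 (-1.74, adjusted p = 0.0481). That omission moved the Ms4a3 change from -1.44 by the gene's own values, so its call supports nothing. From E16 to the adult Mpo fell by 4.64 ± 0.67 on the log2 scale (adjusted p = 1.73e-05) and Ms4a3 by 1.38 ± 0.45 (0.0264), where 24.5% of genes were called and 12.2% were called lower. The call for Ms4a3 was lost without E16 replicates 3 or 4 (-1.10 and -1.35; adjusted p = 0.107 and 0.0588) or adult replicates 1 or 2 (-1.31 and -1.19; 0.0662 and 0.0872), and with no filter (-1.38, 0.0649). Without E16 replicate 1, Elane (-5.03, adjusted p = 0.0308) and Ctsg (-2.55, 0.0177) were called lower in adults as well. That library was the lowest at E16 for both genes. Leaving it out raises E16 by the members' own values, so the calls of Elane and Ctsg support nothing. Omission of single libraries left 1 to 4 members called, and Mpo was among them each time.

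Around birth the calls were less stable. From E18 to P0 Ms4a3 rose by 2.05 ± 0.49 (adjusted p = 0.0137) and Prtn3 by 0.60 ± 0.16 (0.0244) in limma, where 4.77% of genes were called and 2.96% were called higher. The Prtn3 call was lost without E18 replicate 1 (0.53, adjusted p = 0.101) or 3 (0.62, 0.0616) and without P0 replicate 3 (0.46, 0.101) or 4 (0.57, 0.0596), and with no filter (0.60, 0.0650). The Ms4a3 call was lost without E18 replicate 3 (1.71, adjusted p = 0.0890) or P0 replicate 3 (1.67, 0.0630). In wild type P0 HSC of the genotype series, Ms4a3 was at 0.797 to 1.21 RPKM. Age series HSC held it at 1.63 to 9.34 RPKM at P0 and at 0.150 to 0.981 at E18. The difference between the series was not tested. From P0 to P7 Prtn3 fell (-0.65 ± 0.15, adjusted p = 0.00714), the single member called where 5.94% of genes were called and 2.67% were called lower. Without P7 replicate 2, Mpo (-2.14, adjusted p = 0.0332) and Ms4a3 (-1.83, 0.0181) were called lower as well, and without P0 replicate 1 Ms4a3 was (-1.75, 0.0270). P7 replicate 2 was the highest P7 library for both genes, and P0 replicate 1 the lowest P0 library for Ms4a3. These omissions act through the members' own values, so the added calls support nothing.

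No member was called in HSC between E14 and E16 (0.0524% of genes called by limma), P7 and P14 (1.71%) or P14 and adult (5.35%). At an unadjusted p under 0.05 the counts were 2, 0 and 1 of 6. On recovered reads, edgeR called 0 members in these 3 comparisons, and DESeq2 called 1 between E14 and E16, Elane, and 0 in the others.

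Late neutrophil markers were high in some of the same HSC libraries. Their 9-gene sum was 428 RPKM in P0 replicate 3, 430.0 in adult replicate 3, 213 in P7 replicate 4, 138 in E16 replicate 2 and 94.3 in P7 replicate 2, and at most 76.6 in every other HSC age library. Ly6g, a surface marker of mature mouse neutrophils, was at 0 in all HSC ages except adult. Without those 5 libraries, a choice made after the values were seen, the fall of Mpo from E16 to E18 and from E16 to the adult remained called. The Prtn3 calls at P0 against E18 (0.49, adjusted p = 0.0810) and P7 against P0 (-0.64, 0.0514), and the Ms4a3 call at P0 against E18 (1.68, 0.0588), were lost in that limma fit. Mpo then rose from E18 to P0 (1.41, adjusted p = 0.0428) and fell from P14 to the adult (-1.25, 0.0436), and Elane (-3.80, 0.0486) and Ctsg (-2.14, 0.0280) fell from E16 to the adult. Of the libraries left out, P0 replicate 3, P7 replicate 2 and adult replicate 3 were the highest of their ages for Mpo and Elane. The limit was also set so that P7 replicate 2 fell above it, so these added calls support nothing. The part of late neutrophil RNA in the other results was not tested. Markers of progenitors moved with Mpo in HSC. Cd48, Flt3 and Cd34 summed to 308 to 354 RPKM at E16, 202 to 218 at E18 and 145 to 197 in adults, with 2 of 3 called lower at E18 and 3 of 3 in adults. The HSC markers summed to 555 to 604 RPKM at E16, 687 to 710.2 at E18 and 539.6 to 823 in adults, with 0 of 7 called at E18 and 4 lower and 1 higher in adults. The part of these markers in the Mpo results was not tested.

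The other lists in HSC from E16 to the adult were mixed. Of 12 tested other primary granule genes, 6 were higher in adults, among them Serpinb1a, an inhibitor of the granule proteases (2.67), Nkg7 (2.20), Cd63 (0.94) and the granule proteoglycan gene Srgn (0.56). The 2 lower genes were Gusb, a lysosomal glucuronidase (-0.65), and Ctsc (-0.57). Among 13 tested factors and receptors, 5 were lower, with Igsf6 (-2.54), the repressor gene Gfi1 (-2.45) and Spi1, which encodes PU.1 (-1.73), among them, and Hk3 was higher (2.03). Of 12 tested secondary granule and late neutrophil genes, 2 were lower, Cxcr2 (-1.39) and Pglyrp1 (-0.99), and 0 were higher.

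HPC and HSC of the same age were compared by limma on log2(RPKM + 0.5) over 14228 genes, using libraries of different codes, so that code and cell type cannot be told apart. Mpo was higher in HPC at all 5 ages, by 3.58 ± 0.66 at E16 (adjusted p = 1.03e-04), 5.29 ± 0.61 at P0 (1.05e-08), 5.84 ± 0.61 at P7 (1.17e-09), 9.01 ± 0.58 at P14 (3.29e-15) and 7.16 ± 0.61 in adults (9.71e-12). Ctsg was higher at all 5 ages, by 2.41 ± 0.82 at E16 (0.0310), 4.62 ± 0.76 at P0 (7.64e-06), 5.04 ± 0.76 at P7 (1.83e-06), 7.82 ± 0.72 at P14 (4.67e-11) and 5.57 ± 0.76 in adults (4.59e-07). Because adult HSC held no Ctsg read, its adult level in HPC, 25.8 ± 10.3 RPKM (SD, n = 4), was at least 659.9-fold higher than the level that 3 reads over the HSC group would give. At E16 the Ctsg call was lost without HSC replicates 1 or 2 (1.79 and 2.19; adjusted p = 0.129 and 0.0741) or HPC replicate 3 (1.72, 0.190), with edgeR on recovered reads (2.54, 0.0807) and with a pseudocount of 0.1 (3.13, 0.0641).

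**Figure D2:**
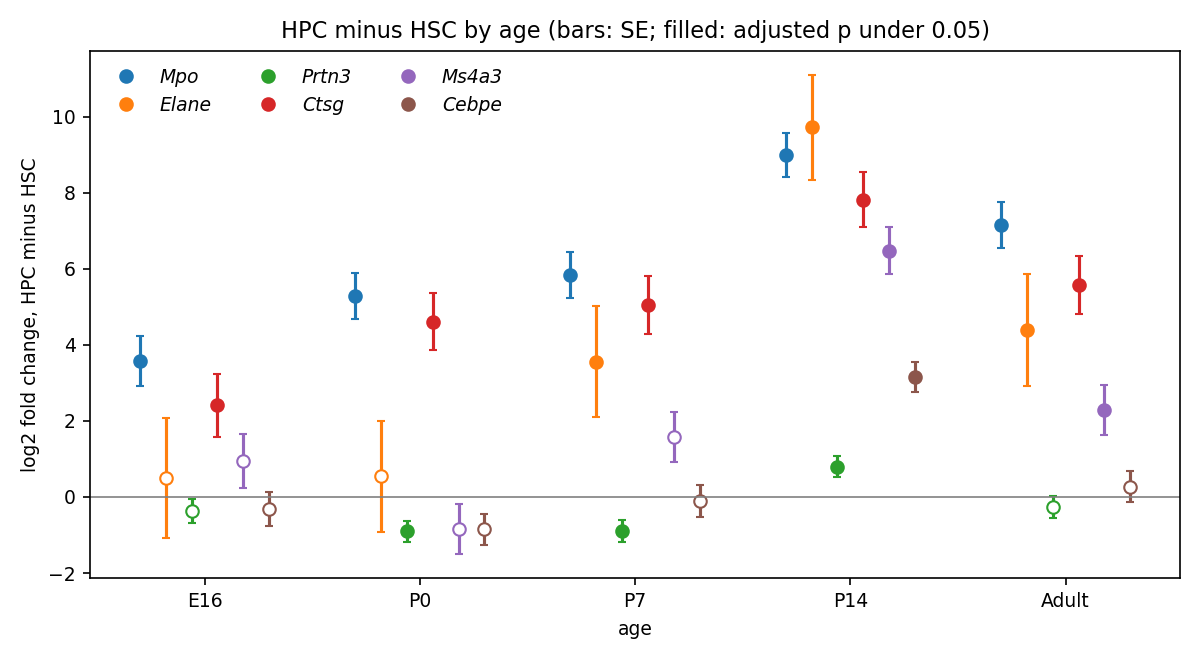
Difference between HPC and HSC of the same age. The y axis is the log2 fold change (HPC minus HSC) with its standard error, the x axis is age, and filled points passed an adjusted p of 0.05. Every member is filled and above 0 at P14, and Prtn3 lies below 0 at P0 and P7.

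At E16, 2 of 6 members were called, both higher in HPC, where 23.2% of genes were called and 10.5% were higher. At P0, 3 of 6 were called, 2 higher and 1 lower, where 38.6% of genes were called, 18.2% higher and 20.5% lower. At P7, 4 of 6 were called, 3 higher and 1 lower, where 41.2% of genes were called, 21.1% higher and 20.1% lower. At P14 all 6 were called higher, where 37.2% of genes were called and 19.4% were higher, and in adults 4 of 6, where 28.4% were called and 15.3% were higher. Elane was higher in HPC by 9.72 ± 1.39 at P14 (adjusted p = 6.82e-07), by 4.39 ± 1.46 in adults (0.0218) and by 3.56 ± 1.46 at P7 (0.0493). The P7 call of Elane was lost with edgeR on recovered reads (1.32, adjusted p = 0.469), with a pseudocount of 1 (2.98, 0.0671) and with no filter (3.56, 0.0648). It was also lost without any of 6 of the 8 libraries, at 2.91 to 3.58 with an adjusted p of 0.0791 to 0.148. The adult call was lost without HSC replicates 1 or 2 (4.15 and 3.93; 0.0505 and 0.0688) or HPC replicate 2 (4.11, 0.0525). Ms4a3 was higher in HPC at P14 (6.48 ± 0.62, 9.01e-11) and in adults (2.30 ± 0.66, 0.00717), and Cebpe at P14 (3.16 ± 0.39, 1.15e-08).

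Prtn3 went the other way at P0 and P7. It was lower in HPC than in HSC at P0 (-0.91 ± 0.28, adjusted p = 0.0102 by limma) and at P7 (-0.90 ± 0.28, 0.0104). Its levels there were 156, 145, 114 and 135 RPKM in HPC against 185 to 364 in HSC at P0, and 80.2 to 93.5 against 142 to 209 at P7, with no overlap at either age. At P14 Prtn3 was higher in HPC (0.80 ± 0.27, 0.0165), a call lost without P14 HPC replicates 2 or 3 (0.56 and 0.50; 0.0914 and 0.0986). In wild type P0 cells of the genotype series, Prtn3 was instead higher in HPC than in HSC by edgeR (0.54 ± 0.12, 0.00225), at 318, 297, 298 and 249 RPKM against 236, 213, 225, 146 and 179. The P0 direction of Prtn3 between cell types therefore differed between the age and genotype series. The difference between the series itself was not tested.

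The change of Mpo from E16 to the adult differed between cell types. The difference of the changes, HPC minus HSC, was 3.58 ± 0.90 (adjusted p = 0.0137 by limma), where 4.09% of genes were called and 2.14% were called higher, and Mpo remained called without each library in turn. Without HSC E16 replicate 1 Ctsg was called as well (3.78, adjusted p = 0.0451). That library held no Ctsg read and was the lowest of its group, so the Ctsg call supports nothing. In the genotype series at P0, Mpo was higher in wild type HPC than HSC by 7.66 ± 0.25 (adjusted p = 4.45e-11, edgeR) and Elane by 2.16 ± 0.66 (0.0131), and 3 of the 4 tested members with reads in both cell types, Mpo, Elane and Prtn3, were called higher where 56.2% of genes were called and 26.3% were higher. The Elane call was lost without HPC wild type replicate 3 (1.75, adjusted p = 0.0599). Ctsg had no read in any of the 9 HSC libraries, and its wild type HPC mean of 19.2 ± 6.85 RPKM (SD, n = 4) was at least 1386-fold higher than 3 reads over the wild type HSC group would give.

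Ifnar -/- HPC at P0 had less RNA of the peroxidase and of 2 proteases. Mpo was at 463, 420.2, 370.1 and 307 RPKM in wild type and at 96.6, 85.6, 102 and 89.4 in Ifnar -/- libraries. Ctsg was at 27.0, 21.5, 17.7 and 10.7 RPKM against 1.11, 1.64, 3.79 and 2.46, and Prtn3 at 318, 297, 298 and 249 against 164, 169, 199.9 and 189. For each of these genes every Ifnar -/- library lay below every wild type library, and the share of all genes that did so was not computed. The mean of Mpo was 389.9 ± 67.2 in wild type and 93.3 ± 7.15 in Ifnar -/- (SD, n = 4 each).

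By edgeR, Mpo differed by -2.13 ± 0.13 (adjusted p = 5.15e-07), Ctsg by -3.15 ± 0.38 (1.90e-04) and Prtn3 by -0.76 ± 0.11 (9.32e-04). These were 3 of the 5 members tested, where 10.4% of 12988 genes were called and 5.40% were called lower. All 3 calls remained without each library in turn. Elane was at 1.98, 2.70, 4.49 and 1.18 RPKM in wild type and at 0.372, 1.78, 0.578 and 0.669 in Ifnar -/-, with overlap (-1.66 ± 0.55, adjusted p = 0.0718). It was called without wild type replicate 4 (-1.91, 0.0355) or Ifnar -/- replicate 2 (-2.30, 0.0368), and by DESeq2 (-1.67, 0.0470). For Elane those were the lowest wild type and the highest Ifnar -/- library, so the calls without them support nothing. Ms4a3 overlapped between genotypes, at 0.433 to 2.11 and 0.545 to 1.37 RPKM, and Cebpe, at most 0.565 RPKM, did not reach the filter for testing.

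**Figure D3:**
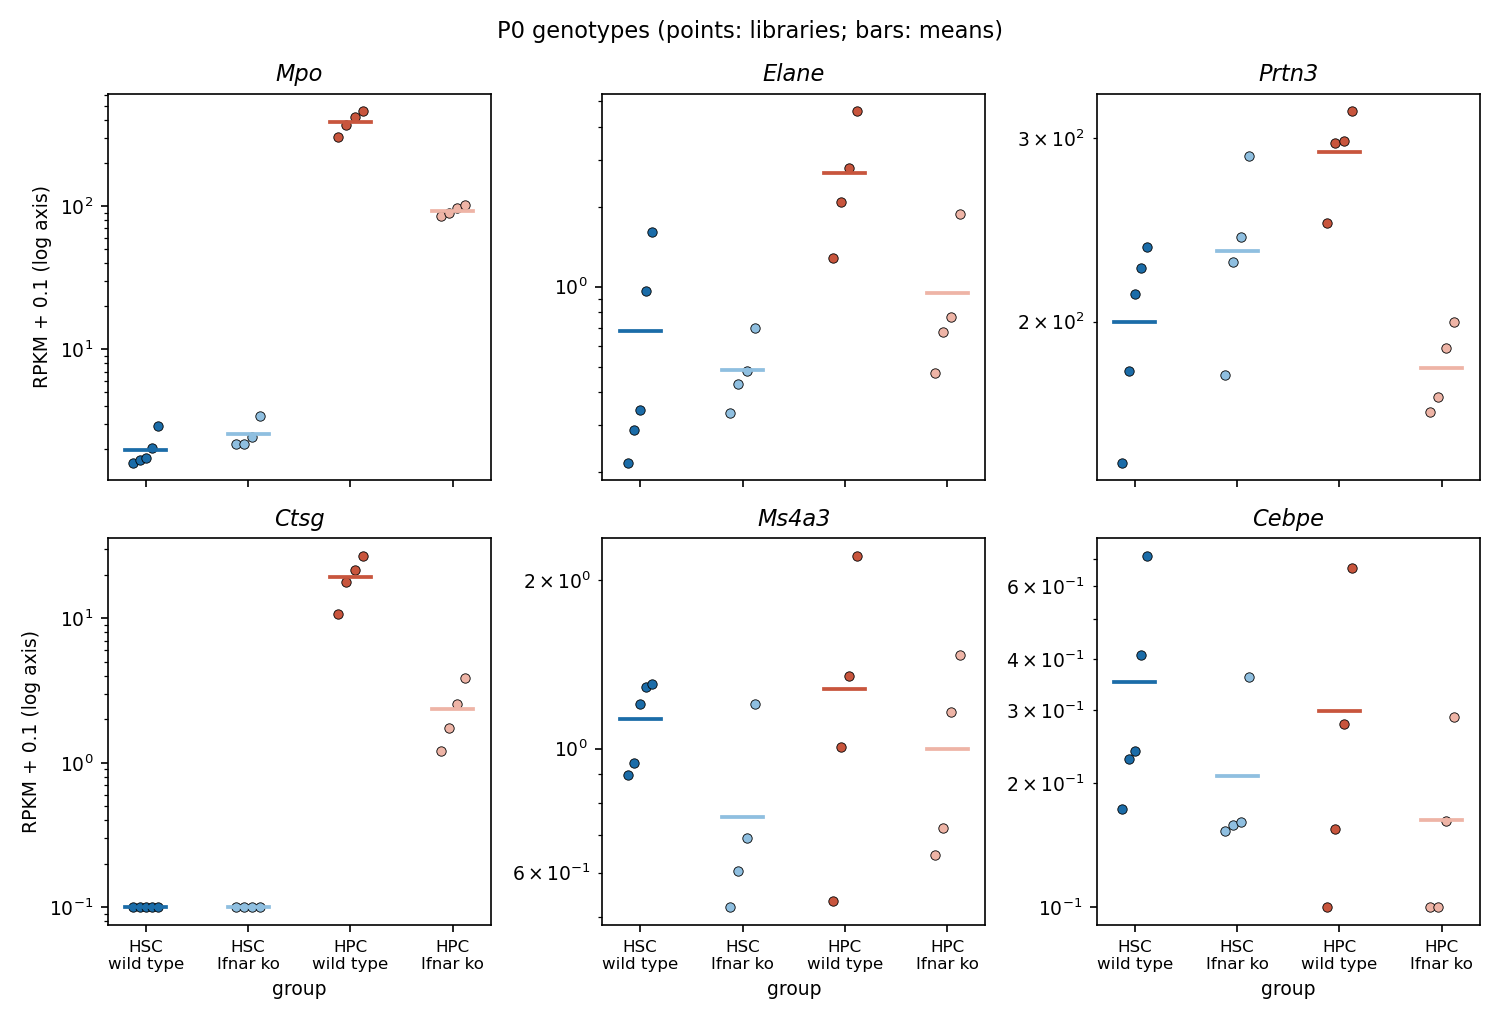
Level of each member at P0 by cell type and Ifnar genotype. The y axis is RPKM + 0.1 on a log axis and the x axis is the group; points are libraries and bars are group means. In HPC the Ifnar -/- libraries of Mpo, Ctsg and Prtn3 all lie below the wild type libraries, and in HSC the groups overlap for Mpo, Prtn3, Elane, Ms4a3 and Cebpe while Ctsg is at 0 throughout.

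In HSC at P0 none of the 4 members tested was called by edgeR or DESeq2, 0 of 4 had an unadjusted p under 0.05, and 1.14% of 16224 genes were called by edgeR. Mpo was at 1.64, 1.58, 1.94, 2.80 and 1.52 RPKM in wild type and 2.08, 2.08, 3.33 and 2.36 in Ifnar -/-. Prtn3 was at 236, 213, 225, 146 and 179 RPKM against 241, 288, 178 and 228. Both genes overlapped between genotypes. The difference between the HPC and HSC effects was not tested, since the libraries of the 2 cell types carry different codes.

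The markers of several cell types differed between the P0 HPC genotypes as well. Summed erythroid markers were at 21.6, 34.0, 16.8 and 25.95 RPKM in wild type and at 325, 309, 274 and 85.0 in Ifnar -/-, and 4 of 4 tested were called higher. Summed progenitor markers were at 976, 984, 948 and 988 RPKM against 501, 632, 687 and 760.1, with 2 of 3 called lower. Of 7 HSC markers, 4 were called higher, and 3 of 3 B cell markers and 4 of 8 tested monocyte and macrophage markers were called lower. Late neutrophil markers summed to 7.90 to 13.7 RPKM in wild type and 7.90 to 13.1 in Ifnar -/- HPC. The part of these markers in the results for Mpo, Ctsg and Prtn3 was not tested.

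Of the 13 other primary granule genes at P0, 4 were lower in Ifnar -/- HPC, Prss57 (-1.38), Nkg7 (-1.10), Serpinb1a (-0.87) and Npc2 (-0.49), and Cd63 was higher (0.45). Of 5 tested secondary granule and late neutrophil genes, 3 were lower: Hp (-2.92), Cybb (-1.74) and Cxcr2 (-1.13). Of 16 factors and receptors, 3 were lower: Irf8, a factor of monocyte and dendritic cell fate that interferons also induce (-2.02), the M-CSF receptor gene Csf1r (-1.82) and Cebpa, a factor needed to form granulocyte-monocyte progenitors (-1.24). Spi1 (1.16) and Runx1 (0.51) were higher.

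At P14 a single library weighed heavily in the comparisons that use Ifnar +/- Flt3 +/+ HPC. In Ifnar +/- Flt3 +/+ HPC, Mpo was at 1752, 174, 118 and 174 RPKM, Elane at 2171, 7.48, 0 and 0.212, and Prtn3 at 552, 61.2, 60.4 and 55.7. Ctsg was at 518, 4.85, 5.55 and 11.4 RPKM, Ms4a3 at 312, 1.51, 0.557 and 0.738, and Cebpe at 8.06, 0.0363, 0.248 and 0.14. Replicate 1 was the highest library for all 6 members. In age series P14 HPC, Mpo was at 494 to 4414 RPKM, Elane at 136 to 3060 and Prtn3 at 99.0 to 538. Ctsg was there at 48.7 to 496 RPKM, Ms4a3 at 20.6 to 297 and Cebpe at 2.56 to 9.44. Replicate 1 lay within or just above these ranges, and the other 3 libraries lay below them for every member. Those 3 libraries thus did not show the P14 levels of the age series. The series differ in library code and Ifnar label, and the difference between them was not tested. The eosinophil markers of replicate 1 summed to 583 RPKM against 38.5, 137 and 108 in the other 3 libraries. Its late neutrophil markers summed to 58.5 RPKM against 4.25 to 4.87. Their part in the members' values was not tested.

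In each of the other P14 genotypes no library reached replicate 1 of that group for any member. In Ifnar +/- Flt3 ITD/+ HPC, Mpo was at 646, 379, 973 and 591 RPKM, Ctsg at 166, 63.9, 216 and 88.4, and Prtn3 at 187, 116, 274 and 109.8. In Ifnar -/- Flt3 +/+ HPC, Mpo was at 164, 68.5, 71.8 and 32.3 RPKM, Ctsg at 23.1, 1.76, 1.82 and 0.326, and Prtn3 at 66.7, 59.9, 62.2 and 63.7. In Ifnar -/- Flt3 ITD/+ HPC, Mpo was at 130.1, 216, 152, 83.0 and 76.3 RPKM, Ctsg at 15.8, 25.2, 11.7, 5.58 and 7.39, and Prtn3 at 69.6, 108, 81.5, 79.0 and 94.5. Replicate 1 of Ifnar -/- Flt3 +/+ was the highest of its group for all 6 members, with eosinophil markers at 2561 RPKM. With Flt3 ITD/+, the Ifnar -/- libraries lay below every Ifnar +/- library for Mpo, Ctsg and Prtn3. The share of all genes that did so was not computed, so the number of members has no background. By edgeR, Ctsg and Prtn3 were not called (-3.40 and -1.04).

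**Figure D4:**
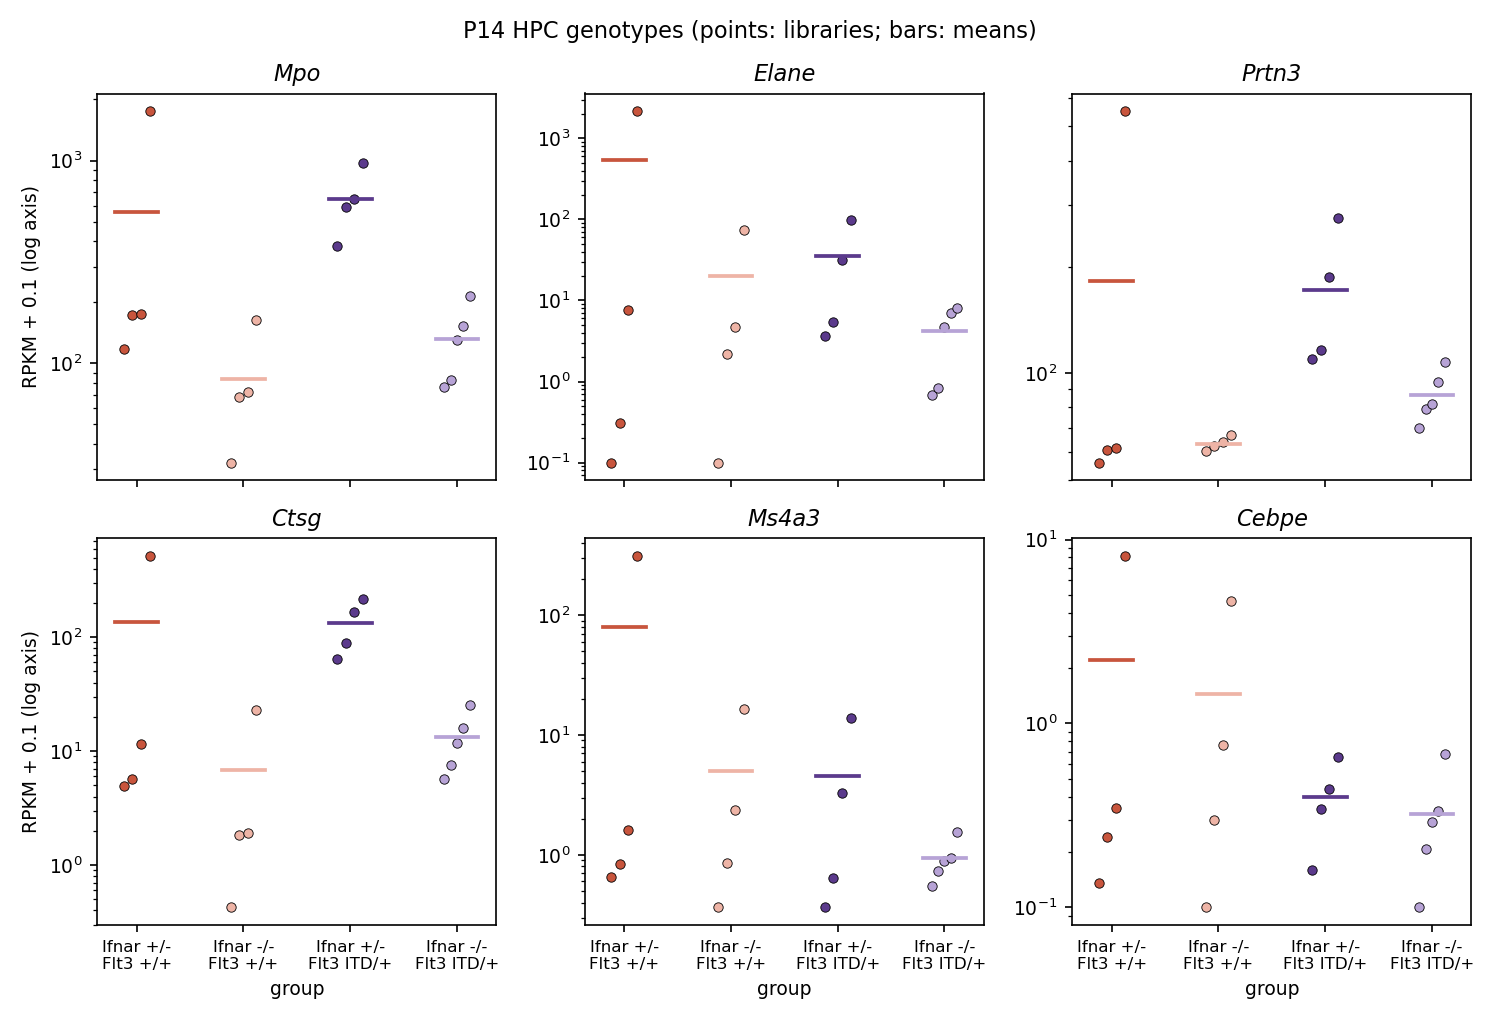
Level of each member in P14 HPC by genotype. The y axis is RPKM + 0.1 on a log axis and the x axis is the genotype; points are libraries and bars are group means. In Ifnar +/- Flt3 +/+, 1 library lies far above the other 3 for every member, at 1752 RPKM for Mpo, and carries the group mean.

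With Flt3 +/+, Ifnar -/- HPC had less Mpo than Ifnar +/- HPC by edgeR (-2.96 ± 0.72, adjusted p = 0.0425), the single member called where 4.39% of 17464 genes were called and 3.31% were called lower. At an unadjusted p under 0.05 there were 5 of 6 members. Without Ifnar +/- replicate 1 the Mpo difference was -1.13 (adjusted p = 0.159) and no member was called. The Mpo call was also lost without Ifnar +/- replicate 3 (-3.32, adjusted p = 0.0532) and without each of the Ifnar -/- replicates 1 to 4 (-3.40 to -2.71, adjusted p = 0.0831 to 0.0968), and when only the libraries of these 2 genotypes were fitted (-2.96, 0.23). Without Ifnar +/- replicate 2, 4 members were called, Mpo, Ctsg (-5.04, 0.00720), Prtn3 (-2.00, 0.00989) and Ms4a3 (-4.72, 0.0397).

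With Flt3 ITD/+, Ifnar -/- HPC had less Mpo as well (-2.36 ± 0.65, adjusted p = 0.0487 by edgeR), the single member called where 4.03% of genes were called and 1.92% were called lower. That call was lost without each of the 9 libraries in turn, at -2.62 to -2.06 with an adjusted p of 0.0513 to 0.152. When only the libraries of these 2 genotypes were fitted, Mpo, Ctsg (-3.42, adjusted p = 0.00204) and Prtn3 (-1.05, 0.0348) were called. Markers of other cells differed between these genotypes too. The HSC markers summed to 150.3 to 185 RPKM in Ifnar +/- and 261 to 311 in Ifnar -/-, with 3 of 7 called higher, and the mast cell and basophil markers to 29.0 to 61.8 and 3.85 to 15.04, with 1 of 4 tested called lower. Neither sum overlapped, and their part in the Mpo difference was not tested.

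The Flt3 ITD allele gave no call among the members in either Ifnar genotype. In Ifnar +/- HPC 4.84% of genes were called and 1 member had an unadjusted p under 0.05, and in Ifnar -/- HPC 0.962% were called and 0 members did. DESeq2 also called 0 members in both. Without Ifnar +/- Flt3 +/+ replicate 1, edgeR called 3 members higher in Flt3 ITD/+ than in Flt3 +/+ Ifnar +/- HPC. These were Mpo (2.00, adjusted p = 0.0181), Ctsg (4.12, 0.0344) and Prtn3 (1.45, 0.00836). Replicate 1 was the highest library of the Ifnar +/- Flt3 +/+ group for all 6 members. Leaving it out lowers that group by the members' own values, so these 3 calls support nothing. Without replicate 2 of the same group, Ms4a3 was called lower in Flt3 ITD/+ (-4.58, adjusted p = 0.0473). The difference of the Flt3 ITD effect between Ifnar genotypes had 0 members called by edgeR or DESeq2 and 0 under an unadjusted p of 0.05, where 0.0115% of genes were called.

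Among the factors and receptors at P14, Flt3 ITD/+ in Ifnar +/- HPC was higher for Irf8 (3.19), Csf1r (2.39), Csf2rb, a shared receptor subunit for GM-CSF and related cytokines (1.33), and Runx1 (0.57), and lower for Gfi1 (-0.94). In Flt3 ITD/+ HPC, Ifnar -/- libraries were lower than Ifnar +/- for Irf8 (-2.32), Hk3 (-1.60), Csf1r (-1.46) and Cebpa (-1.31). These 2 comparisons share the Ifnar +/- Flt3 ITD/+ libraries. Of the 13 other primary granule genes, Rab44 was higher (3.01) and Cd63 lower (-1.47) in the first, and Rab44 was lower (-3.01) in the second.

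Genes whose levels ranked most like the mean of the 6 members were found separately in each cell type, by Spearman correlation over the age libraries. In the 20 HPC libraries they were Ly6c2 (0.91), Dram1 (0.87), Ap3s1 (0.84), Aldh3b1 (0.83) and Slpi (0.81). In the 26 HSC libraries they were Mtfr1 (0.78), Acy3 (0.76), Gpr84 (0.76), Hdc (0.75) and Tspan32 (0.74). These values describe libraries that share ages and library codes, and no gene was in both lists.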

How the data were processed

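RNA was extracted with a Qiagen RNAeasy micro plus kit and libraries were made with a Clontech kit, per the labels' protocols. The submitters' processing notes name STAR 3.0.4, Subread and featureCounts 1.4.5. The genome build and annotation are not given in the sources used here. The authors deposited raw counts per gene for the HPC age libraries and all genotype libraries, and RPKM for the HSC age libraries. The deposited RPKM values were whole multiples of 1 read for 100% of nonzero values (tolerance 1e-05), so reads were recovered for 25622 genes. Lengths matched GENCODE M21 for 16638 genes and came from the values for 8984, with Elane, Ctsg and Cebpe among the latter. RPKM of the other libraries was computed from the deposited counts with these lengths. 1 column of per-sample values matched no sample and was not used.

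HSC age libraries were tested with limma 3.58.1, with a robust trend, after TMM scaling and the transform log2(RPKM + 0.5), over genes above 1 RPKM in enough libraries to fill the smallest group, with all ages in 1 fit, and HPC against HSC in the same way. Count tables were tested with edgeR 4.0.16 (quasi-likelihood, TMM), 1 fit for HPC ages, P0 HSC, P0 HPC, P0 wild type and P14 each, in R 4.3.3. Alternatives were DESeq2 1.42.0, edgeR on recovered reads, other scaling, pseudocounts of 0.1 and 1, no filter, only the compared groups, a replicate block and omission of single libraries. Scripts were tested on simulated data. P-values were adjusted within each of 26 comparisons over all genes tested. The text names the 6 members, up to 4 called genes of each list with the smallest adjusted p and, in each cell type, the 5 genes most like the members' mean. Cd63, Cebpa, Ctsc, Gusb and Gfi1 are named outside this rule, where few genes of a direction were called, after their values were seen. The members and lists were chosen with earlier results of these data known. Intervals from reads cover counting error only.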

Additional observations from a re-analysis of the deposited data

Results flagged for a closer look

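A library was singled out where its distance from the nearest other library of its group, relative to the group's range, exceeded Dixon's 95% critical value. Of 99 pairs of a member and a group of 4 to 10 libraries, 22 held such a library. The same libraries recur over the members, so the pairs are not independent. The count was therefore not set against a chance rate. Ifnar +/- Flt3 +/+ P14 HPC replicate 1 stood above its group for all 6 members, at 1752 RPKM for Mpo, 2171 for Elane, 518 for Ctsg, 552 for Prtn3, 312 for Ms4a3 and 8.06 for Cebpe. Ifnar -/- Flt3 +/+ P14 HPC replicate 1 stood above its group for 4 members, at 73.2 RPKM for Elane, 23.1 for Ctsg, 16.3 for Ms4a3 and 4.55 for Cebpe.

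In the age series, HSC P0 replicate 3 stood above its group at 76.5 RPKM for Mpo, 179 for Elane and 7.97 for Ctsg. HSC P7 replicate 2 did so at 29.0 RPKM for Mpo, 48.2 for Elane and 3.59 for Ms4a3. Further single values were Elane at 5.03 RPKM in HSC P14 replicate 1 and at 29.7 in HPC P0 replicate 2, and Prtn3 at 219 in HPC adult replicate 2. Prtn3 was low at 127 RPKM in HSC P14 replicate 2. Cebpe was high at 0.453 RPKM in HPC adult replicate 4 and at 0.262 in P0 Ifnar -/- HSC replicate 2.

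The change of Mpo from E16 to the adult differed between HPC and HSC by 3.58 on the log2 scale, by limma's test of the difference itself.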

How the results depend on the processing

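Calls of all 6 members from P7 to P14 in HPC, of Mpo, Elane, Ctsg, Ms4a3 and Cebpe from P14 to the adult, of Mpo in HSC from E16 to E18 and to the adult, of Mpo in the difference between cell types, and of Mpo, Ctsg and Prtn3 at P0 in Ifnar -/- HPC were kept under every alternative run. A member called under no alternative of a comparison is given as levels, and its fold change was not followed. The 4 alternatives that leave out libraries by markers or granule genes were chosen after seeing the data. Of these, the 90 RPKM late neutrophil limit replaced a first thought of 100 so that HSC P7 replicate 2 fell above it, and the 2 P14 libraries were picked by the members' own values, so that alternative supports nothing. Depth limits Ctsg, Elane and Cebpe in HSC and Cebpe in P0 HPC, where levels rest on few reads. The cause of the changes below was not tested.

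No label says that a replicate number marks shared animals or days, and not every same-numbered pair had a correlation of deviations over 0.1, so the numbers were taken only as names. The median was -0.0156 in HSC and -0.0767 in HPC of the age series (9 of 73 and 11 of 36 pairs over 0.1), 0.0771 and -0.00423 in P0 HSC and HPC (2 and 1 of 4), and 0.166 at P14 (15 of 24; different numbers -0.0551). With the number as a replicate block, genes called went from 7 to 4 (HSC E14 to E16), 846 to 1524 (Flt3 ITD in Ifnar +/-), 766 to 1293 (Ifnar in Flt3 +/+), 704 to 452 (Ifnar in Flt3 ITD/+) and 2 to 0 (P14 interaction). Members called went from 0 to 1 (HPC E16 to adult), 1 to 2 (Ifnar in Flt3 +/+) and 1 to 0 (Ifnar in Flt3 ITD/+, Mpo adjusted p = 0.0728), and the Flt3 ITD effect in Ifnar +/- turned from -0.08 to 2.38 for Ctsg and from -0.15 to 0.27 for Prtn3.

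DESeq2 moved genes called from 483 to 877 (HPC E16 to P0), 222 to 416 (P0 to P7), 185 to 336 and 1347 to 2036 (Ifnar at P0 in HSC and HPC), 846 to 2656 and 168 to 428 (Flt3 ITD in Ifnar +/- and -/-), 766 to 3097 and 704 to 1376 (Ifnar in Flt3 +/+ and ITD/+) and 2 to 2408 (interaction). Among the 3097, 38.8% were higher against 24.5% of the 766, and members called went from 1 to 3 there and from 0 to 1 for HPC E16 to adult. On recovered HSC reads DESeq2 gave 64 genes for 7 and 1 member for 0 (E14 to E16), 1111 for 728 (E16 to E18), 956 for 637 (E18 to P0) and 394 for 229 (P7 to P14). On recovered reads edgeR gave 3 genes for 7 (E14 to E16), 586, 511, 697, 165 and 652 at the later HSC steps in age order, 3182 from E16 to adult, and 1 member for 2 in HPC against HSC at E16, as did a pseudocount of 0.1. No TMM scaling gave 13 genes for 7 (E14 to E16), and RLE size factors gave 1 member for 0 in HPC E16 to adult.

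Without a filter, genes called went from 7 to 14 (HSC E14 to E16), 728 to 471 (E16 to E18), 229 to 143 (P7 to P14) and 2 to 12 (interaction), and members from 2 to 1 (HSC E18 to P0 and E16 to adult), 0 to 1 (HPC E16 to adult) and 1 to 2 (Ifnar in Flt3 +/+). With only the compared groups, genes called went from 483 to 205 (HPC E16 to P0), 222 to 645 (P0 to P7), 4262 to 2665 (P14 to adult), 846 to 165 and 168 to 295 (Flt3 ITD in Ifnar +/- and -/-) and 766 to 42 and 704 to 1368 (Ifnar in Flt3 +/+ and ITD/+). Members went from 0 to 2 (HPC P0 to P7), 0 to 1 (E16 to adult), 1 to 0 and 1 to 3 (Ifnar in Flt3 +/+ and ITD/+).

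Without the late neutrophil libraries, genes called in HSC went from 637 to 286 and members from 2 to 1 (E18 to P0), 794 to 167 and 1 to 0 (P0 to P7), 229 to 49 (P7 to P14), 714 to 452 and 0 to 1 (P14 to adult), and members from 2 to 4 (E16 to adult). Without the eosinophil libraries, genes called in HPC went from 483 to 806, 222 to 382, 1452 to 3568 and 4262 to 2387 in age order, with 1 member for 0 from E16 to adult. Both together gave 2 members for 1 in the difference between cell types. Without the 2 granule-high P14 libraries, genes called went from 766 to 39 and 2 to 0 and members from 0 to 3 and 0 to 1 (Flt3 ITD in Ifnar +/- and -/-) and 1 to 0 and 1 to 3 (Ifnar in Flt3 +/+ and ITD/+). Signs then turned for Flt3 ITD in Ifnar +/- (Ms4a3 -4.19 to 2.24, Ctsg to 4.12, Prtn3 to 1.46) and Ifnar in Flt3 +/+ (Ms4a3 -4.32 to 0.12).

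Without single libraries, genes called ranged over 2 to 8 (HSC E14 to E16), 417 to 634 (E16 to E18), 361 to 659 (E18 to P0), 460 to 760 (P0 to P7) and 119 to 197 (P7 to P14). In HPC they ranged over 236 to 545 (E16 to P0), 114 to 181 (P0 to P7), 556 to 1611 (P7 to P14) and 2523 to 3686 (E16 to adult), and over 2162 to 2955 for HPC against HSC at E16. They ranged over 650 to 2310 (Ifnar in P0 HPC), 38 to 6223 and 319 to 682 (Ifnar in Flt3 +/+ and ITD/+), 264 to 5804 (Flt3 ITD in Ifnar +/-) and 0 to 5592 (interaction). Members called ranged over 1 to 2 (HSC E16 to E18), 0 to 2 (E18 to P0), 1 to 3 (P0 to P7), 1 to 4 (E16 to adult), 0 to 1 (HPC E16 to adult), 1 to 2 (HPC against HSC at E16, and the difference between cell types), 0 to 4 and 0 to 0 (Ifnar in Flt3 +/+ and ITD/+) and 0 to 3 (Flt3 ITD in Ifnar +/-). Signs turned in 2 P14 comparisons. For Ifnar in Flt3 +/+, Ms4a3 ranged over -6.30 to 2.08, and for Flt3 ITD in Ifnar +/- Mpo ranged over -0.19 to 2.00, Ms4a3 over -6.01 to 2.25, Ctsg over -0.51 to 4.12 and Prtn3 over -0.52 to 1.45. Without Ifnar +/- Flt3 +/+ replicate 1, Ms4a3 was at 2.08 for Ifnar in Flt3 +/+, and for Flt3 ITD in Ifnar +/- Ms4a3 was at 2.25, Ctsg at 4.12 and Prtn3 at 1.45. Without its replicates 2, 3 or 4, Mpo was at -0.12, -0.19 and -0.16 in the latter, and at -0.14 without Ifnar +/- Flt3 ITD/+ replicate 3. Without that group's replicates 2 or 4, Ctsg was at 0.17 and 0.09 and Prtn3 at 0.01 and 0.02.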
